A study of Mus musculus with 3 samples.

Results

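Of the 31053 genes counted in 3 mouse brain sections, 9 encode precursors of hypothalamic neuropeptides and are described here: Pmch, Hcrt, Avp, Oxt, Gal, Trh, Cartpt, Pomc and Agrp. They were chosen by symbol, and all 9 were in the count tables. The sections were fresh frozen, 10 µm thick and from mice of the C57BL/6J strain, with 1 section per group. The O-Ex section is labelled as exercise, and the O-Ctrl and Y-Ctrl sections as control. The study asks how exercise bears on brain aging, and O and Y are taken here to stand for old and young. The labels used here state neither ages nor animal numbers, nor the kind or length of the exercise. RNA was captured on arrays of barcoded spots and counted by unique molecular identifiers (UMIs). A spot is a piece of tissue that can hold parts of several cells. The labels call the molecule nuclear RNA, while their protocol puts whole sections on the array.

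The hypothalamus holds small groups of neurons that each make 1 or a few peptides, cut from a long precursor, stored in dense granules and released as hormones or as slow signals to other neurons. Pmch encodes the precursor of melanin-concentrating hormone and Hcrt that of the orexins, made by neighbouring but separate neurons of the lateral hypothalamus that act on feeding, sleep and wakefulness. Avp and Oxt encode vasopressin and oxytocin, made by large neurons of the paraventricular and supraoptic nuclei. Pomc and Agrp mark arcuate neurons with opposite effects on appetite. Gal, Trh and Cartpt encode galanin, thyrotropin-releasing hormone and the CART peptides, which several hypothalamic nuclei and some regions outside the hypothalamus make.

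RefSeq promoters of the GRCm38.p6 assembly were matched by symbol for 8 of the 9 genes, all but Agrp. The bases before the start sites of Pmch and Hcrt are shown because these genes had the lowest O-Ctrl to Y-Ctrl ratios of all genes with a mean of at least 10 counts per 1000000 UMIs (CPM). The Pmch stretch is chr10:88090822-88091071 on the plus strand and the Hcrt stretch is chr11:100762932-100763181 on the minus strand. Both are written 5′ to 3′, and the capitals mark TATAAA.
Pmch: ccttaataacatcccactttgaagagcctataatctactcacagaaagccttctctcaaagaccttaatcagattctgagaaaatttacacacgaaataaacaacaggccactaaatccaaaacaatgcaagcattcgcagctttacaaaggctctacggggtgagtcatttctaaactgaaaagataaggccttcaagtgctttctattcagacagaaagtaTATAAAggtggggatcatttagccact
Hcrt: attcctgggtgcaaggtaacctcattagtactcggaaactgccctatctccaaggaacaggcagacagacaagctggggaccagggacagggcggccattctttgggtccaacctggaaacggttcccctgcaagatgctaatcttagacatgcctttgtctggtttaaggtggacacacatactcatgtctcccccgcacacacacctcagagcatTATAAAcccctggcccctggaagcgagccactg
TATAAA began 27 bases before the start site of Pmch, 33 bases before that of Hcrt and 25 bases before that of Pomc. It was in none of the other 5 promoters. Over 32851 promoters of 300 bases, 13.6% held TATAAA on either strand. The cAMP response element TGACGTCA, which reads the same on both strands, lay 112 bases before the start site of Cartpt and in 1.79% of all promoters. The nuclear receptor half-site AGGTCA, searched on both strands, was in the promoters of Oxt, Trh and Pomc and in 16.3% of all promoters. No overlap between these motifs was found in the 8 promoters. A match is a description of the letters and does not show that a factor binds there.

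The sections held 53196124 UMIs in O-Ex, 58234443 in O-Ctrl and 62348064 in Y-Ctrl. Spots with at least 3000 UMIs numbered 3332, 3498 and 3409 in that order of sections, with medians of 13685, 14900 and 15718 UMIs. The 4992 barcodes were the same in the 3 libraries, since they name fixed positions of the array. Spots were clustered by expression with the 9 genes left out, which gave 22 clusters. The cluster with the most hypothalamic markers, 11 of 17 among its 30 leading genes, is called the hypothalamic cluster below. It held 339 spots in O-Ex, 388 in O-Ctrl and 169 in Y-Ctrl, or 10.2%, 11.1% and 4.96% of the spots. The 17 markers were all detected there, with summed levels of 5568 CPM in O-Ex, 5712 in O-Ctrl and 6215 in Y-Ctrl. The sum hides differences: in O-Ctrl over Y-Ctrl Dlk1, Peg10, Ecel1, Magel2 and Asb4 were at least 1.5-fold lower in these spots, and in O-Ex over O-Ctrl Irs4 was. Of 8 ependymal genes that passed the filter on low values 6, and 4 of 4 blood genes, were at least 1.5-fold higher in O-Ctrl over Y-Ctrl, and the 4 blood genes and 1 ependymal gene were lower in O-Ex over O-Ctrl. Of all 8799 genes that passed, 2.59% were higher and 1.99% lower in O-Ctrl over Y-Ctrl, and 0.716% lower in O-Ex over O-Ctrl. The part of these markers in the results below was not tested. Another cluster matched hypothalamus with 4 markers but was led by Gad2 and Agt, and is called the Gad2- and Agt-rich cluster. The sections did not hold the same regions: a cluster led by Penk and Tac1, named striatum by 10 markers but with 5 hypothalamic markers as well, had 15 spots in O-Ex, 154 in O-Ctrl and 153 in Y-Ctrl, and a GABAergic subcortical cluster had 1, 20 and 38. A thalamic cluster led by Calb2 had 1 spot in O-Ex, 4 in O-Ctrl and 203 in Y-Ctrl. Another thalamic cluster, led by Prkcd, had 236, 254 and 401. With 1 section per group no test was possible, and animal, level of the cut and condition cannot be told apart. Intervals below are exact 95% intervals and cover counting error only. Fewer cells of a type and less RNA per cell cannot be told apart in such spots either.

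**Figure D1:**
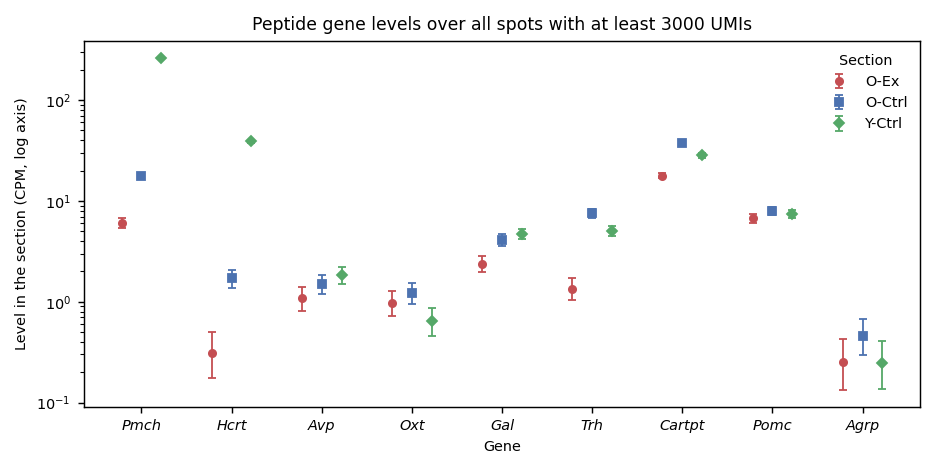
Levels of the 9 genes over all spots with at least 3000 UMIs, in CPM on a log axis, for the O-Ex, O-Ctrl and Y-Ctrl sections from left to right within each gene. Points are single sections and bars are exact 95% Poisson intervals; Pmch stood at 6.04, 17.8 and 261.5 CPM, while Pomc stood at 6.71, 8.00 and 7.45 CPM.

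Pmch, on chromosome 10 at 88091072-88092375 of mm10, had, together with Hcrt, the largest differences between O-Ctrl and Y-Ctrl. It had 313 UMIs in O-Ex, 1017 in O-Ctrl and 16002 in Y-Ctrl. The levels were 6.04 CPM (5.39 to 6.74) in O-Ex, 17.8 CPM (16.8 to 19.0) in O-Ctrl, while Y-Ctrl stood at 261.5 CPM (257.5 to 265.6), and no interval overlapped another. O-Ex was lower than O-Ctrl by a count ratio of 0.338 (0.297 to 0.384). O-Ctrl was lower than Y-Ctrl by a count ratio of 0.0682 (0.0640 to 0.0727).

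The number of Pmch-rich spots differed between sections. A spot is called rich in a gene when it holds at least 10 UMIs of it. Pmch-rich spots numbered 3 of 3332 in O-Ex, 18 of 3498 in O-Ctrl and 79 of 3409 in Y-Ctrl. These are 0.0900% (0.0186 to 0.263%), 0.515% (0.305 to 0.812%) and 2.32% (1.84 to 2.88%) of the spots of O-Ex, O-Ctrl and Y-Ctrl. Spots just inside the threshold, with 10 to 12 UMIs, numbered 1, 4 and 6 in the same order, and those just outside it, with 7 to 9 UMIs, numbered 7, 10 and 6. The median rich spot held 13 Pmch UMIs in O-Ex, 24 in O-Ctrl and 44 in Y-Ctrl, and the mean 38.0, 38.2 and 191. The O-Ex and O-Ctrl means were thus nearly equal, and the 3 O-Ex spots held 89, 13 and 12 UMIs. Median depths of these spots were 14101, 9462 and 14680 UMIs.

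The richest Pmch spot held 89 UMIs in O-Ex and 183 in O-Ctrl. In Y-Ctrl the 5 richest spots held 2750, 2658, 1569, 1416 and 1058. Pmch made up 0.983% of all UMIs in the richest O-Ex spot, 3.67% at most in an O-Ctrl spot and 11.4% at most in a Y-Ctrl spot. All 5 of these Y-Ctrl spots lay in the hypothalamic cluster, as did the 3 rich spots of O-Ex and 14 of the 18 of O-Ctrl. The O-Ctrl spot with 183 UMIs was a shallow one, of 4986 UMIs in all, in the Gad2- and Agt-rich cluster. The 4 richest Y-Ctrl spots held 50% or more of the section's Pmch UMIs, a share that took 9 spots in O-Ex and 7 in O-Ctrl.

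**Figure D2:**
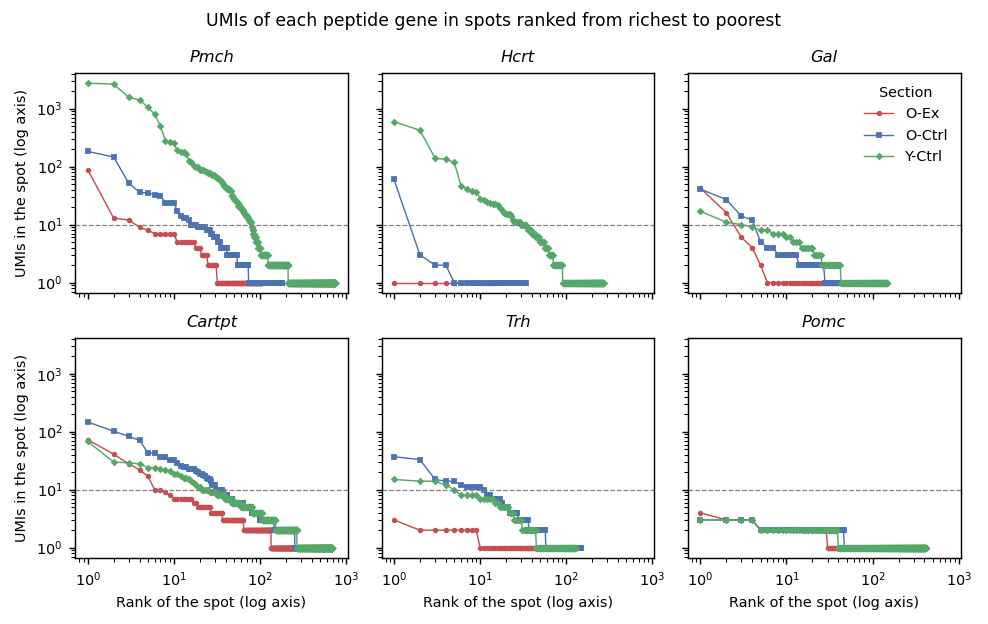
UMIs of 6 of the genes in single spots, ranked from the richest spot to the poorest, for O-Ex (red circles), O-Ctrl (blue squares) and Y-Ctrl (green diamonds); both axes are logarithmic, spots with no UMI are left out and the dashed line marks 10 UMIs. Pmch and Hcrt fall over several orders of magnitude in Y-Ctrl, with richest spots of 2750 and 596 UMIs, while no spot of any section held more than 4 Pomc UMIs.

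Within the hypothalamic cluster Pmch stood at 54.6 CPM (47.3 to 62.6) in O-Ex, 153.6 CPM (142.0 to 166.0) in O-Ctrl, while Y-Ctrl stood at 6410.5 CPM (6308 to 6514). Per UMI of hypothalamic tissue, the Y-Ctrl level was thus further from O-Ctrl than over the whole section, with a count ratio of O-Ctrl to Y-Ctrl of 0.0240 (0.0221 to 0.0259). The cluster held 65.2% of the Pmch UMIs of O-Ex, 62.9% of those of O-Ctrl and 93.3% of those of Y-Ctrl. The Gad2- and Agt-rich cluster came next in each section, at 18.9, 79.5 and 183.4 CPM in O-Ex, O-Ctrl and Y-Ctrl. Outside the hypothalamic cluster the 3 levels were 2.26, 7.14 and 18.2 CPM.

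Pmch reached every cluster of the Y-Ctrl section. Its lowest level among clusters of at least 20 spots was 6.97 CPM in layer 5 cortex of Y-Ctrl, and 5 clusters each were at 0 in O-Ex and O-Ctrl. In the Lamp5- and Vip-rich cortical cluster, which should lack Pmch neurons, 0 of 178 spots, which allows up to 1.69%, had a Pmch UMI in O-Ex, 1.43% (0.296 to 4.12%) of 210 in O-Ctrl and 27.9% (21.8 to 34.6%) of 201 in Y-Ctrl. Those Y-Ctrl spots held at most 2 Pmch UMIs and had a median depth of 31912 UMIs. In the hypothalamic cluster 9.73% of spots in O-Ex, 24.2% in O-Ctrl and 76.9% in Y-Ctrl had a Pmch UMI, at median depths of 10350, 10888 and 13934 UMIs. The O-Ex and O-Ctrl shares were thus above that cortical background of their own section, as was the Y-Ctrl share. Parpbp overlaps Pmch on the opposite strand. In the hypothalamic spots it had 0 UMIs in O-Ex, 0 in O-Ctrl and 10 in Y-Ctrl, beside 204, 640 and 14928 Pmch UMIs.

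Hcrt, on chromosome 11 at 100761069-100762931 of mm10, was scarce in O-Ex and O-Ctrl. It had 16 UMIs in O-Ex, 97 in O-Ctrl and 2383 in Y-Ctrl, or 0.309 CPM (0.176 to 0.501), 1.70 CPM (1.38 to 2.08) and 38.9 CPM (37.4 to 40.5). The 3 intervals did not overlap. The count ratio was 0.181 (0.0997 to 0.310) for O-Ex to O-Ctrl and 0.0437 (0.0353 to 0.0535) for O-Ctrl to Y-Ctrl.

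No O-Ex spot held more than 1 Hcrt UMI, and 0 rich spots of 3332 allows a share of up to 0.0900%, taken as 3 counts of the total, as for all counts of 0 here. Of the O-Ex UMIs of Hcrt, 6.25% lay in the hypothalamic cluster, 1 UMI in all. In O-Ctrl 1 spot held 60 of the 97 UMIs and the next held 3. Without the 5 richest spots of each of the 9 genes in each section, Hcrt differed between O-Ex and O-Ctrl by -0.32 on the log2 scale of CPM plus 1, against -1.05 with them. Y-Ctrl had 34 Hcrt-rich spots, 0.997% (0.692 to 1.39%) of its spots, and the 5 richest held 596, 424, 140, 133 and 119 UMIs. In the hypothalamic cluster Hcrt stood at 0.268 CPM (0.00677 to 1.49) in O-Ex, 18.7 CPM (14.8 to 23.4) in O-Ctrl, while Y-Ctrl stood at 936 CPM (897 to 976). In the Lamp5- and Vip-rich cluster 1 of 178 spots in O-Ex, 1 of 210 in O-Ctrl and 21 of 201 in Y-Ctrl had an Hcrt UMI, each with 1 UMI. In O-Ex the hypothalamic and the cortical cluster thus had 1 spot with 1 Hcrt UMI each, at median depths of 10350 and 25901.5 UMIs, and no order is read from them.

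Pmch and Hcrt were rich in the same spots in Y-Ctrl. All 34 Hcrt-rich spots of Y-Ctrl were Pmch-rich, which is 100% of the Hcrt-rich and 43.0% of the 79 Pmch-rich spots. The single Hcrt-rich spot of O-Ctrl held 5 Pmch UMIs. None of the 3 Pmch-rich spots of O-Ex and none of the 18 of O-Ctrl held any Hcrt UMI, whereas 75 of the 79 of Y-Ctrl did. The spots share tissue and depth, so this is co-detection in spots and not in cells.

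The spots richest in Pmch held little Hcrt, but those richest in Hcrt held Pmch. The 5 Y-Ctrl spots richest in Pmch held 1, 28, 1, 1 and 0 Hcrt UMIs, in order of falling Pmch. The 5 richest in Hcrt held 180, 47, 88, 797 and 178 Pmch UMIs, and the first 3 of them held more Hcrt than Pmch. Hcrt outnumbered Pmch in 6 of the 34 Hcrt-rich spots. With every spot thinned to 3000 UMIs, 0, 2 and 59 spots of O-Ex, O-Ctrl and Y-Ctrl had at least 1 UMI of both genes, against 1, 9 and 145 before thinning. The Pearson correlation of the 2 genes over spots, on log2 of counts per 10000 plus 1, was 0.00 over 3332 spots in O-Ex, 0.17 over 3498 in O-Ctrl and 0.71 over 3409 in Y-Ctrl.

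**Figure D3:**
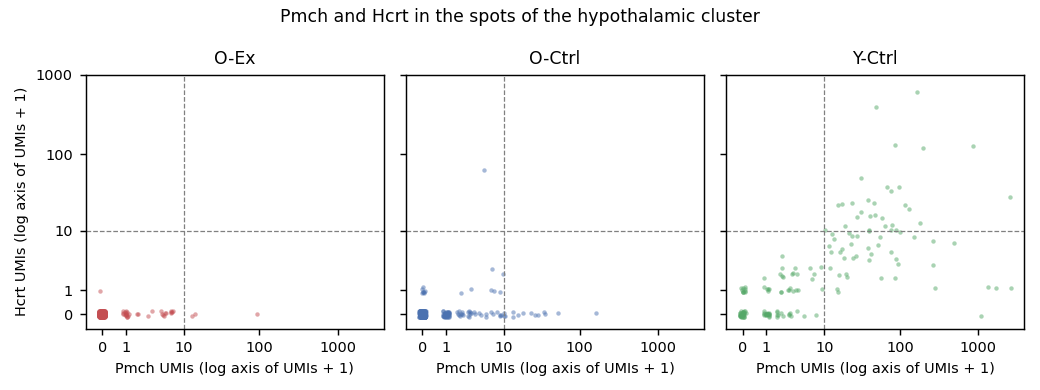
Pmch UMIs (horizontal) against Hcrt UMIs (vertical) in single spots of the hypothalamic cluster of O-Ex, O-Ctrl and Y-Ctrl, on log axes of UMIs plus 1 with a small random shift of each point so that equal counts can be seen; dashed lines mark 10 UMIs. The upper right field, rich in both genes, is empty in O-Ex and O-Ctrl, and the Y-Ctrl spots with over 1000 Pmch UMIs lie low on the Hcrt axis apart from 1 with 28 Hcrt UMIs.

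Cartpt, on chromosome 13 at 99898489-99901091 of mm10, did not follow Pmch over the whole section. It had 925 UMIs in O-Ex, 2125 in O-Ctrl and 1729 in Y-Ctrl, or 17.8 CPM (16.7 to 19.0), 37.3 CPM (35.7 to 38.9) and 28.3 CPM (26.9 to 29.6), so that O-Ctrl was highest. Rich spots numbered 7, 36 and 25 in O-Ex, O-Ctrl and Y-Ctrl. The place of these UMIs differed between sections. In O-Ctrl the cluster led by Penk and Tac1 held 1105 of them, 52.0%, at 430.5 CPM (405.5 to 456.6) and with 30 of the 36 rich spots, including those with 147, 102, 83 and 71 UMIs. In Y-Ctrl it held 218 UMIs, at 103.5 CPM (90.2 to 118.2), and in O-Ex 32 UMIs in 15 spots. The 3 richest O-Ex spots, with 73, 41 and 28 UMIs, lay in a cluster led by Lypd1 and Hpcal1. At a clustering resolution of 1.5 a cluster led by Cartpt itself, with 9 hypothalamic markers such as Hap1, Baiap3 and Ecel1, held 26 Cartpt UMIs in 3 O-Ex spots, 1052 in 77 O-Ctrl spots and 203 in 64 Y-Ctrl spots. The 9 genes were left out of that clustering too. The striatal cluster of that resolution, with no hypothalamic marker among its leading genes, held 6, 53 and 15.

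Within the hypothalamic cluster Cartpt had the same order of sections as Pmch: 18.5 CPM (14.4 to 23.4) in O-Ex, 48.7 CPM (42.3 to 55.9) in O-Ctrl, while Y-Ctrl stood at 173.5 CPM (157.0 to 191.3). These 3 intervals did not overlap. At the finer resolution the order was not the same in every cluster named hypothalamus. In O-Ex, O-Ctrl and Y-Ctrl the cluster led by Pmch had 21.1, 35.2 and 166.9 CPM, in the reported order. The cluster led by Rarres2 had 1.55, 89.8 and 261.7 CPM, with 1 UMI in O-Ex. The cluster led by Gad2 had 11.5, 18.2 and 26.9 CPM, with overlap between neighbouring intervals. Only the cluster led by Cartpt itself departed from the order, with 838 CPM (788 to 890) in O-Ctrl and 229 (198 to 262) in Y-Ctrl. Its 620 CPM (405 to 909) in O-Ex came from only 26 UMIs in 3 spots, 1 of them Cartpt-rich. Spots rich in both Cartpt and Pmch numbered 0 in O-Ex, 3 in O-Ctrl and 9 in Y-Ctrl. In O-Ctrl they were 16.7% of the Pmch-rich and 8.33% of the Cartpt-rich spots, and in Y-Ctrl 11.4% and 36.0%. The Y-Ctrl spots with 2750, 1569 and 1416 Pmch UMIs held 24, 68 and 30 Cartpt UMIs, and the O-Ctrl spot with 147 Pmch UMIs held 43. In O-Ctrl the hypothalamic spots with at least 10, with 1 to 9 and with no Pmch UMIs had Cartpt levels of 620.5, 70.8 and 13.8 CPM, over 14, 80 and 294 spots. In Y-Ctrl the same 3 kinds of spot had 290.2, 88.4 and 26.2 CPM, over 70, 60 and 39 spots. The 3 Pmch-rich spots of O-Ex had no Cartpt UMI.

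Gal, on chromosome 19 at 3409915-3414544 of mm10, had 123 UMIs in O-Ex, 233 in O-Ctrl and 289 in Y-Ctrl. The levels were 2.37 CPM (1.97 to 2.83), 4.09 CPM (3.58 to 4.65) and 4.72 CPM (4.19 to 5.30), and the intervals of O-Ctrl and Y-Ctrl overlapped. The hypothalamic cluster held 13 of these UMIs in O-Ex, 103 in O-Ctrl and 168 in Y-Ctrl, at 3.48 CPM (1.85 to 5.95), 24.7 CPM (20.2 to 30.0) and 72.1 CPM (61.6 to 83.9). In O-Ex the Gad2- and Agt-rich cluster held 70 Gal UMIs instead, 56.9% of the section's, of which 43 and 16 came from 2 spots. The Gal level of that cluster was 18.9 CPM in O-Ex, 19.6 CPM in O-Ctrl and 4.96 CPM in Y-Ctrl. All 3 Gal-rich spots of Y-Ctrl were also Pmch-rich, and its hypothalamic spots with at least 10, with 1 to 9 and with no Pmch UMIs had 126.4, 30.8 and 6.54 CPM of Gal. None of the 4 Gal-rich spots of O-Ctrl was Pmch-rich. One of them held 29 Avp and 27 Gal UMIs in a spot of 7009 UMIs.

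Avp and Oxt lie side by side on chromosome 2 of mm10, Avp at 130580620-130582554 on the minus strand and Oxt at 130576173-130577054 on the plus strand, with 3565 bases and no annotated gene between them. Both were scarce in all 3 sections. Avp had 56 UMIs in O-Ex, 85 in O-Ctrl and 112 in Y-Ctrl, or 1.08 CPM (0.816 to 1.40), 1.49 CPM (1.19 to 1.84) and 1.83 CPM (1.51 to 2.20). Neighbours in this order did not differ beyond their intervals. Oxt had 50, 70 and 39 UMIs, or 0.964 CPM (0.716 to 1.27) in O-Ex, 1.23 CPM (0.957 to 1.55) in O-Ctrl, while Y-Ctrl stood at 0.637 CPM (0.453 to 0.871). Only the intervals of O-Ctrl and Y-Ctrl were apart. The richest Avp spot held 8, 29 and 7 UMIs and the richest Oxt spot 3, 2 and 2 in O-Ex, O-Ctrl and Y-Ctrl. Apart from the Avp spot of O-Ctrl, no section had a spot rich in either gene.

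The Avp UMIs lay in different places. In O-Ex 18 of 56 were in the cluster of hippocampal fields CA2 and CA3, in O-Ctrl 30 of 85 were in the hypothalamic cluster and 29 of those in 1 spot, and in Y-Ctrl 33 of 112 were in the GABAergic subcortical cluster. The hypothalamic cluster had 1 Avp UMI in O-Ex, 30 in O-Ctrl and 0 in Y-Ctrl. In the Lamp5- and Vip-rich cortical cluster 8 of 178 O-Ex spots, 11 of 210 O-Ctrl spots and 19 of 201 Y-Ctrl spots had an Avp UMI. Hypothalamic spots with an Oxt UMI made up 2.95% in O-Ex, 3.61% in O-Ctrl and 0.592% in Y-Ctrl, against 5.62%, 7.62% and 6.47% in that deeper cortical cluster. In CPM Oxt was higher in the hypothalamic cluster of O-Ex and O-Ctrl, at 3.21 against 2.26 and at 4.08 against 3.25, so no order between the clusters is read from these few UMIs. The spots with a UMI of both genes numbered 3 in O-Ex, 1 in O-Ctrl and 6 in Y-Ctrl.

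Trh, on chromosome 6 at 92242061-92244650 of mm10, had 70 UMIs in O-Ex, 430 in O-Ctrl and 311 in Y-Ctrl. The levels were 1.35 CPM (1.05 to 1.71), 7.54 CPM (6.85 to 8.29) and 5.08 CPM (4.53 to 5.68), with no overlap. Most Trh outside O-Ex was not hypothalamic. The GABAergic subcortical cluster, led by Trh, Pvalb and Six3, held 200 UMIs in 20 O-Ctrl spots, at 606 CPM (525 to 696), and 189 UMIs in 38 Y-Ctrl spots, at 340.3 CPM (293.5 to 392.4). It held 9 of the 11 Trh-rich spots of O-Ctrl and all 5 of Y-Ctrl. O-Ex had 1 spot of this cluster, with 0 Trh UMIs, and no O-Ex spot held more than 3. Hypothalamic spots held 9 Trh UMIs in O-Ex, 47 in O-Ctrl and 45 in Y-Ctrl, or 2.41, 11.3 and 19.3 CPM. The count ratio there was 0.213 (0.0919 to 0.441) for O-Ex to O-Ctrl and 0.584 (0.380 to 0.899) for O-Ctrl to Y-Ctrl. With every spot thinned to 3000 UMIs, the whole-section log2 ratio of O-Ctrl to Y-Ctrl was -0.20, against 0.49 without thinning.

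**Figure D4:**
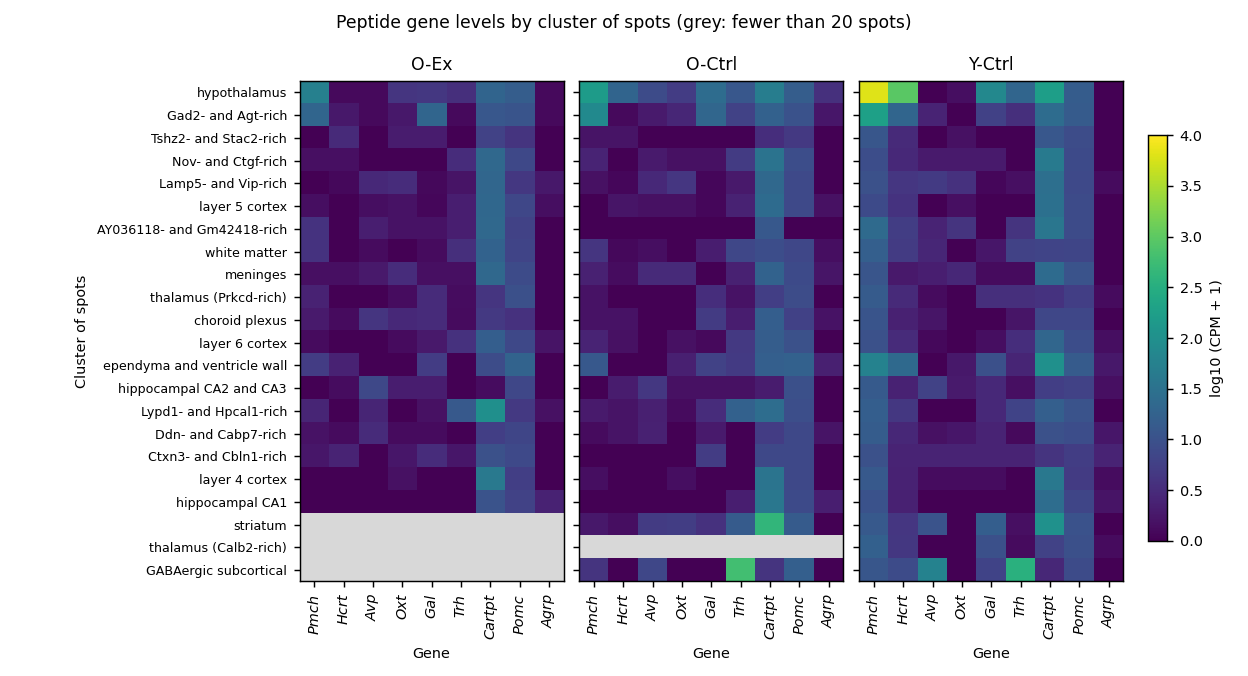
Levels of the 9 genes in each cluster of spots, as log10 of CPM plus 1, in O-Ex, O-Ctrl and Y-Ctrl from left to right; clusters are rows, genes are columns and grey rows have fewer than 20 spots in that section. Pmch peaks in the hypothalamic row of each section (6410.5 CPM in Y-Ctrl), and Hcrt in that row of O-Ctrl and Y-Ctrl (936 CPM in Y-Ctrl). Trh peaks in the GABAergic subcortical row of O-Ctrl and Y-Ctrl. Cartpt of O-Ctrl peaks in the row named striatum, whose cluster also had 5 hypothalamic markers. In O-Ex Hcrt is highest in the Tshz2- and Stac2-rich row, on 2 UMIs, and Trh in the Lypd1- and Hpcal1-rich row, on 23 UMIs.

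Pomc, on chromosome 12 at 3954951-3960642 of mm10, had count ratios closest to 1. It had 348 UMIs in O-Ex, 456 in O-Ctrl and 456 in Y-Ctrl, or 6.71 CPM (6.02 to 7.45), 8.00 CPM (7.28 to 8.77) and 7.45 CPM (6.78 to 8.17), and each interval overlapped the others. The count ratio was 0.839 (0.727 to 0.967) for O-Ex to O-Ctrl, an interval that does not hold 1, and 1.07 (0.941 to 1.22) for O-Ctrl to Y-Ctrl. Among hypothalamic spots the 3 levels were 14.2 CPM (10.6 to 18.5), 14.2 CPM (10.8 to 18.3) and 13.7 CPM (9.40 to 19.4). No spot was rich: the richest held 4, 3 and 3 UMIs, which allows shares of rich spots of up to 0.0900%, 0.0858% and 0.0880% in O-Ex, O-Ctrl and Y-Ctrl. The highest cluster stood only 2.96, 2.34 and 1.89 times above the median cluster. For Pmch the same figures were 92.3, 256.3 and 537.8. Pomc UMIs were thus spread thinly over the sections.

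Agrp had 13 UMIs in O-Ex, 26 in O-Ctrl and 15 in Y-Ctrl over all spots, at most 3 in a spot. Its levels were 0.251 CPM (0.133 to 0.429), 0.456 CPM (0.298 to 0.668) and 0.245 CPM (0.137 to 0.404), and the intervals overlapped. In the hypothalamic cluster it had 1, 11 and 0 UMIs. Its annotated span on chromosome 8 of mm10, 105566698-105637393, overlaps 2 genes on the same strand and 5 on the other, so even these counts are uncertain.

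Set against all genes, Pmch stood at the low end of both comparisons. Ratios are on log2 of CPM plus 1, which understates differences of scarce genes, and 1.5-fold is used as a descriptive size. Of the 9 genes, 3 had a mean of at least 10 CPM over the whole sections, Pmch, Cartpt and Hcrt, of which Hcrt passed only through Y-Ctrl, so that its count and rank are no support. In O-Ex over O-Ctrl all 3 were at least 1.5-fold lower, at -1.42, -1.02 and -1.05, where 0.166% of 9013 genes were. They were 3rd, 6th and 5th from the lowest of those genes, and 60 of the 97 O-Ctrl UMIs of Hcrt came from 1 spot. Without Hcrt 2 of 2 members were lower in O-Ex over O-Ctrl, and 1 of 2 in O-Ctrl over Y-Ctrl. With Y-Ctrl left out, Pmch reached the mean only through O-Ctrl, at 17.8 CPM against 6.04 in O-Ex. Its count in O-Ex over O-Ctrl is thus no support either. In O-Ctrl over Y-Ctrl Hcrt at -3.89 and Pmch at -3.80 were the lowest and the next to lowest of the 9013 genes, of which 0.344% were at least 1.5-fold lower. Cartpt was at 0.39. None of the 3 was at least 1.5-fold higher in either comparison, as 0.999% and 0.577% of genes were. Both comparisons use the O-Ctrl section, so their ratios are not independent. With no filter on low values Trh at -1.86 and Gal at -0.59 were also that low in O-Ex over O-Ctrl, which made 5 of 9 members where 0.275% of 21812 genes were. The other counts over whole sections stayed at 2 lower and 0 higher, where 0.417% of genes were lower in O-Ctrl over Y-Ctrl and 1.22% and 0.926% were higher in O-Ex over O-Ctrl and in O-Ctrl over Y-Ctrl. Gal in O-Ex over O-Ctrl was at -1.13 when spots were thinned to 3000 UMIs.

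In the hypothalamic cluster 6 members had a mean of at least 10 CPM, and 5 of them were at least 1.5-fold lower in each comparison. Hcrt and Trh reached that mean only through Y-Ctrl, where they were highest, so the count is no support for them. Of the 4 members that reached it without Y-Ctrl, 3 were lower in each comparison, Pmch, Gal and Cartpt. Gal reached it there through O-Ctrl, at 24.7 CPM against 3.48 in O-Ex, so its count in O-Ex over O-Ctrl is no support. In O-Ex over O-Ctrl the 5 were Hcrt at -3.96, Gal at -2.52, Trh at -1.85, Pmch at -1.48 and Cartpt at -1.35, where 0.716% of 8799 genes were that low. The Hcrt value rests on 1 UMI in O-Ex against 78 in O-Ctrl, a count ratio of 0.0143 (0.000357 to 0.0820). In O-Ctrl over Y-Ctrl the 5 were Hcrt at -5.57, Pmch at -5.37, Cartpt at -1.81, Gal at -1.51 and Trh at -0.73, where 1.99% of genes were that low. Pomc was at 0.00 and 0.04. The medians over the 8799 genes were 0.09 and -0.01. Without the 5 richest spots of each member in each section, O-Ex over O-Ctrl was at -0.70 for Cartpt and -1.86 for Hcrt. With no filter, the scarce Avp and Agrp were also lower in O-Ex over O-Ctrl, on 1 UMI each in O-Ex, where 4.45% of 18032 genes were lower and 7.06% higher. In O-Ctrl over Y-Ctrl Avp, Oxt and Agrp had 30, 17 and 11 UMIs in O-Ctrl against 0, 1 and 0 in Y-Ctrl, where 8.92% of genes were higher and 5.16% lower. When the Gad2- and Agt-rich cluster was joined to the hypothalamic one, a setting chosen after seeing the data, Gal stood at -0.93 in O-Ex over O-Ctrl and -0.86 in O-Ctrl over Y-Ctrl, and Trh at -0.44 in O-Ctrl over Y-Ctrl.

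**Figure D5:**
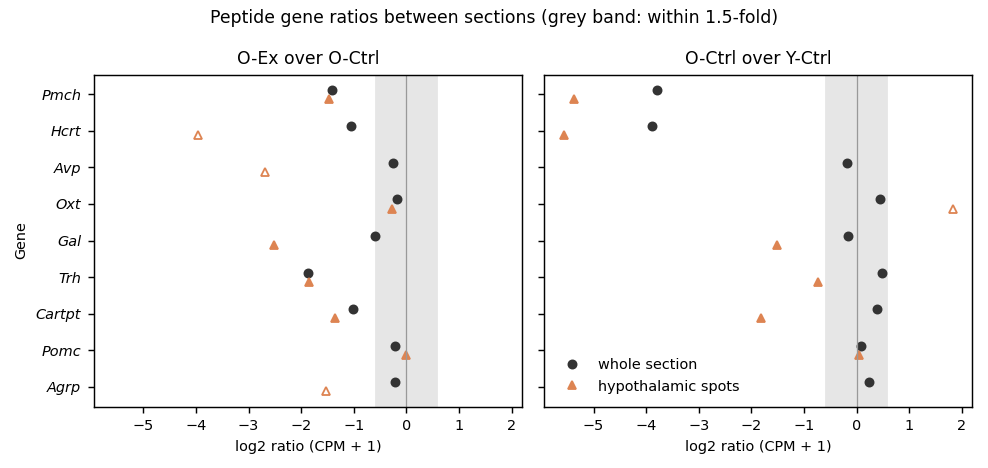
Log2 ratios of CPM plus 1 for the 9 genes, O-Ex over O-Ctrl (left) and O-Ctrl over Y-Ctrl (right), over the whole section (dark circles) and in the hypothalamic cluster (orange triangles); the grey band spans ratios within 1.5-fold, open symbols rest on 1 to 3 UMIs in a section, and ratios with a section at 0 are not drawn. Pmch and Hcrt lie far to the left in the right panel, at -3.80 and -3.89 over the whole section, and Pomc lies near 0 in both panels.

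All 14 genes of the list of processing enzymes and granule proteins, such as the carboxypeptidase Cpe, the convertase inhibitor Pcsk1n and the granins Chga and Chgb, had a mean of at least 10 CPM. None was past 1.5-fold over the whole sections in either comparison, with list medians of 0.06 in O-Ex over O-Ctrl and 0.01 in O-Ctrl over Y-Ctrl, beside 0.07 and -0.01 over all genes. So few of all genes were past it, between 0.166% and 0.999% in each direction, that 0 of 14 says little of the list. In the hypothalamic cluster Pam, the amidating enzyme, at 0.71 and the granin-like Vgf at 0.72 were higher in O-Ex over O-Ctrl, where 2.70% of all genes were, and none was past 1.5-fold in O-Ctrl over Y-Ctrl. Of the 15 receptors of these peptides only Mchr1, the receptor of melanin-concentrating hormone, reached that mean over whole sections. It stood at 10.9 CPM in O-Ex, 11.3 in O-Ctrl and 11.3 in Y-Ctrl. In the hypothalamic cluster 0 of the 15 reached it. Of 8 peptide-degrading enzymes, 5 reached that mean over whole sections and 3 in the hypothalamic cluster, and none of these was past 1.5-fold in either comparison.

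Of 22 other hypothalamic peptide genes, 13 had a mean of at least 10 CPM in the hypothalamic cluster. In O-Ex over O-Ctrl 1 was higher, Cck at 0.77, and 3 were lower, Tac2, Npvf and Grp, with a list median of -0.24. Npvf, which encodes RFamide-related peptides of the dorsomedial hypothalamus, had 0 UMIs in O-Ex, 41 in O-Ctrl and 82 in Y-Ctrl. It reached that mean only through Y-Ctrl, where it was highest, so the counts are no support for it. In O-Ctrl over Y-Ctrl 4 were higher, Ghrh, Tac1, Adcyap1 and Grp, and 5 were lower, Tac2, Nts, Pdyn, Npvf and Cck, with a list median of -0.44. Tac1, the substance P precursor, stood at 168.8 CPM in O-Ex, 216.3 in O-Ctrl and 88.5 in Y-Ctrl, so the peptides did not all order the sections alike. Somatostatin, Sst, at 253 CPM in O-Ex, 318 in O-Ctrl and 431 in Y-Ctrl, and Npy, at 30.2, 35.8 and 49.0, stayed within 1.5-fold. The shares of all genes were 2.70% higher and 0.716% lower in O-Ex over O-Ctrl, and 2.59% higher and 1.99% lower in O-Ctrl over Y-Ctrl. Over the whole sections 11 of the 22 passed, with Tac1, Nts and Penk lower in O-Ex over O-Ctrl and Tac2 lower in O-Ctrl over Y-Ctrl.

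Transcription factors of the hypothalamus differed in a few members. Of 22 on the list, 6 had a mean of at least 10 CPM in the hypothalamic cluster. Otp, needed for several neuroendocrine cell groups, had 3 UMIs in O-Ex, 33 in O-Ctrl and 68 in Y-Ctrl, or 0.802, 7.92 and 29.2 CPM. Lhx9, known from orexin neurons, ran the other way at 22.5 CPM in O-Ex, 15.4 in O-Ctrl and 6.87 in Y-Ctrl. Arnt2, Pou3f2, Nkx2-2 and Ebf3 stayed within 1.5-fold in both comparisons. Pdyn and Nptx2, which orexin neurons also express, stood at 17.7 and 5.62 CPM in O-Ex, 16.3 and 7.68 in O-Ctrl, and 35.6 and 19.8 in Y-Ctrl. Beside the next counts, 2.70% of all genes were higher and 0.716% lower in O-Ex over O-Ctrl, and 2.59% higher and 1.99% lower in O-Ctrl over Y-Ctrl. Of 9 genes of magnocellular and paraventricular neurons 7 passed, with Otp lower in both comparisons and Pdyn in O-Ctrl over Y-Ctrl. Of 9 arcuate genes 5 passed, with Tac2 and Otp lower in both and Ghrh higher in O-Ctrl over Y-Ctrl. Of 8 genes listed as partners of Pmch neurons 6 passed, and only Tac1 was past 1.5-fold, higher in O-Ctrl over Y-Ctrl. Of 8 listed as partners of Hcrt neurons 7 passed, with Npvf lower in both comparisons, Pdyn and Nptx2 lower in O-Ctrl over Y-Ctrl and Lhx9 higher there. Whether the listed genes share cells with Pmch or Hcrt was not tested. Otp, Npvf and Nptx2 reached that mean only through Y-Ctrl, where they were highest, so these counts are no support for them. Of 7 neuronal activity genes Fos, Junb and Egr1 passed, and all 3 were at least 1.5-fold lower in O-Ctrl over Y-Ctrl, at -0.69, -0.91 and -0.86, and none was past 1.5-fold in O-Ex over O-Ctrl. This was not particular to the hypothalamic cluster. Over whole sections Fos, Junb, Egr1, Arc and Nr4a1 passed, and all 5 were lower in O-Ctrl over Y-Ctrl, where 0.344% of genes were. Pituitary markers summed to between 0.654 and 1.47 CPM in the 3 sections. The part of the level of cut in these values was not tested.

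Genes with at least 200 UMIs in each section were ranked by their mean Pearson correlation with each member over spots. The correlation also had to be positive in each section used. Over the 3 sections the highest for Pmch were Dlk1 at 0.29, Gpx3 at 0.27, Resp18 at 0.25, Baiap3 at 0.24 and AW551984 at 0.24. All but AW551984 were among the markers of hypothalamus. Hcrt fell under that minimum and was not ranked. Its correlation with Pmch was 0.00 in O-Ex, 0.17 in O-Ctrl and 0.71 in Y-Ctrl. For Hcrt, measured in Y-Ctrl alone, the highest ranked genes were Pmch at 0.71, Dlk1 at 0.59, Gpx3 at 0.40, AW551984 at 0.38 and Baiap3 at 0.34. For Trh, in O-Ctrl and Y-Ctrl, the highest were Ecel1 at 0.25, Esrrg at 0.25 and Gad1 at 0.22. Cartpt and Gal had no such gene above 0.21, and Pomc and Avp, the latter measured in Y-Ctrl alone, had none of at least 0.20. Gal and Trh were also under the minimum of 200 UMIs and could not be listed. In Y-Ctrl Gal was at 0.41 with Hcrt, and Trh was at 0.35 with Avp. Spots share library and depth, and these values are descriptions.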

How the data were processed

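The deposited UMI counts of 3 Visium sections, which the file headers credit to Space Ranger 2.0.0, on mm10 per the submitters' processing notes, were whole numbers with no normalization. Spots with at least 3000 UMIs were kept (97.5 to 98.1% of UMIs). Counts were summed per section or cluster and expressed as counts per 1000000 UMIs (CPM). Spots were clustered with scanpy 1.11.5 (2000 variable genes without the 9 members, 30 components, 15 neighbours, Leiden resolution 0.8). Clusters were named from marker lists, and the choice of hypothalamic cluster was made after the clusters were seen. Doublet calling was not applied to spots. Ratios used a pseudocount of 1 CPM. Their calculation was checked on simulated Poisson counts with known changes in genes averaging 10 CPM or more. The simulation had no spread between animals, sections or spots beyond counting error, so it says nothing of such spread here. Poisson and Clopper-Pearson intervals have a confidence of 95%. With 1 section per group there were no replicates and no tests. Coordinates are from GENCODE M21. The members and lists were chosen with earlier results of these data known. Named genes were the members and the 5 most alike to each (mean correlation of at least 0.2, at least 200 UMIs in each section). From each list came the 2 of highest mean CPM and the 2 of largest ratio per comparison, among those averaging 10 CPM or more. Other list genes in the text were chosen after their values were seen, and not every gene under the rule is printed. Alternatives were other spot minimums, pseudocounts, filters, scalings (TMM, edgeR 4.0.16), cluster settings and thresholds for rich spots.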

Additional observations from a re-analysis of the deposited data

Results flagged for a closer look

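Barcodes with fewer than 3000 UMIs took no part in the report, and some held peptide UMIs above the 3 counts that a count of 0 allows. Pmch had 37 UMIs there in O-Ctrl and 119 in Y-Ctrl, against 3 in O-Ex. Hcrt had 15 and Avp 5 in Y-Ctrl, and Gal had 4 in O-Ctrl. Cartpt had 16 in O-Ex, 31 in O-Ctrl and 24 in Y-Ctrl, and Pomc had 10, 17 and 9 in the same order. Agrp had 19 in O-Ctrl, over 15 barcodes, beside 26 in all the deeper spots of that section, 1 in O-Ex and 0 in Y-Ctrl. Per 1000000 UMIs of those shallow barcodes, Agrp stood at 0.750 in O-Ex, 15.4 in O-Ctrl and 0 in Y-Ctrl, and Pmch at 2.25, 30.1 and 102.5. Whether they lie over tissue was not tested.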

How the results depend on the processing

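No paired analysis was possible because each group has 1 section. Of the values that answer a comparison, 134 alternatives stayed close to the reported value and 18 moved; of the values of single genes, 453 stayed, 92 moved and 1 reversed, counting as reversed only a value past 1.5-fold that changed sign. Below that size, Trh in O-Ctrl over Y-Ctrl over whole sections also changed sign, to -0.20 when spots were thinned. The count of members at least 1.5-fold lower in O-Ex over O-Ctrl over whole sections, 3 as reported, was 5 with genes of at least 2 CPM, 5 with no filter, 2 with a pseudocount of 5 CPM and 2 without the 5 richest spots of each gene, and Hcrt was not past 1.5-fold with the last 2. The same count in O-Ctrl over Y-Ctrl, 2 as reported, was 1 without the 5 richest spots of each gene in each section, a setting chosen after seeing the data. There Pmch stayed at -3.31 and Hcrt at -3.48, with fewer genes tested because Hcrt fell under the mean. Avp in the hypothalamic cluster, O-Ex over O-Ctrl, reversed to 0.026 when the other peptides were left out of the clustering, and the cause was not tested. The median Pmch UMIs of rich spots was 7 in O-Ex and 10 in O-Ctrl with rich set at 5 UMIs, 89 in O-Ex and 70 in Y-Ctrl at 20 UMIs, 48.5 in O-Ex at 1000 CPM, and 4.5, 5 and 8 in O-Ex, O-Ctrl and Y-Ctrl after thinning, each fixed by its own threshold. Spots rich in both Pmch and Hcrt numbered 1 in O-Ctrl and 55 in Y-Ctrl at 5 UMIs, 14 in Y-Ctrl at 20 UMIs and 19 in Y-Ctrl at 1000 CPM, against 0 and 34. Members with a rich spot in Y-Ctrl numbered 3 at 20 UMIs, against 5. The share of Pmch UMIs in the hypothalamic cluster was 42.6% in O-Ctrl and 92.1% in Y-Ctrl at a clustering resolution of 1.5. At 20 UMIs the order of the medians of O-Ex and Y-Ctrl turned, with 1 O-Ex spot. Over whole sections the log2 ratios of O-Ctrl over Y-Ctrl lay between -4.11 and -3.09 for Pmch and between -4.44 and -2.71 for Hcrt, and those of O-Ex over O-Ctrl between -1.67 and -1.05 for Pmch and between -2.14 and -0.32 for Hcrt. The totals of Avp, Oxt and Agrp were 13 to 112 UMIs per section, which limits what can be read from them. The part of depth and of the level of the cut in these totals was not tested.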
